A study of Mus musculus with 8 samples.

Results

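The genes described here are interferon-stimulated genes, a set of 40 symbols, in sorted mouse hepatic stellate cells. Stellate cells are pericytes that wrap the liver's sinusoids and store retinoids. A gene counted as measured when the array's annotation gave it at least 1 probe set with no other symbol, and where several qualified, the one with the highest mean stood for it. This held for 33 of the 40 genes, out of 19938 genes measured in all. Of the remaining 7, Isg15, Oas1g, Ifi204, Igtp, Gbp2 and Gbp6 have probe sets annotated to several genes and Ifi44 has no annotated probe set here, so they were not analysed here. RNA was hybridised to 8 whole-transcript arrays. The reverted group (4 arrays) held stellate cells of male Balb/c mice given the liver toxin carbon tetrachloride (CCl4). The mice had 4 injections, 2 in each week, of 0.5 µl per g of body weight, followed by 45 days without CCl4. The quiescent group (4 arrays) held stellate cells of normal male Balb/c mice. The labels put both groups at 18 weeks of age in one statement and the reverted mice at 16 weeks in another. In both groups the sort gated on retinoid autofluorescence, so that cells that had lost their retinoids were not collected, and cells were lysed at once. No label says whether an array holds cells of 1 mouse or of a pool, so that the spread behind each p-value is that between these arrays and may be technical.

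Type I interferons bind a receptor found on nearly all cells and activate a transcription factor complex of STAT proteins and IRF9, which binds the interferon-stimulated response element (ISRE) in the promoters of its targets. Interferon gamma acts through a receptor of its own and through gamma-activated sites (GAS). The induced genes encode proteins that sense or degrade viral RNA, block virus entry or release, tag proteins, load peptides for antigen presentation and damp the response again, and a low tonic interferon signal keeps many of them expressed without infection. In liver fibrosis, stellate cells are known both to respond to interferons and to be restrained by interferon gamma.

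The promoters of several of these genes carry the ISRE letters close to the transcription start. A core of the letters GAAA, any 2 bases, and GAAA again was searched on both strands of the 250 bases before each annotated transcription start in the RefSeq promoter table of GRCm38.p6, with overlapping matches counted. A window was listed for 25 of the 33 measured genes, and 11 of these (44.0%) had a match, against 3.46% of the 27025 genes in the table. Shown here are the 150 bases before the start for the 5 genes with a match whose levels followed the rest of the set most closely across arrays, and for Oas3, which has a match and ran against the rest. Capitals mark the matched letters, read on the gene's own strand, where TTTC, any 2 bases, and TTTC is a match on the opposite strand. The stretches lie at chr19:34640739-34640888 (plus strand) for Ifit1, chr5:120907526-120907675 (minus strand) for Oas1a, chr3:142559894-142560043 (plus strand) for Gbp3, chr8:71537473-71537622 (minus strand) for Bst2, chr7:104465194-104465343 (minus strand) for Trim30a and chr5:120777660-120777809 (minus strand) for Oas3, all in GRCm38.p6.
Ifit1: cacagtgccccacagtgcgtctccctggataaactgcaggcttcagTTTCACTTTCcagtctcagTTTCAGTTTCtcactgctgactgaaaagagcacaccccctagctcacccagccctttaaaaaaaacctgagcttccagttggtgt
Oas1a: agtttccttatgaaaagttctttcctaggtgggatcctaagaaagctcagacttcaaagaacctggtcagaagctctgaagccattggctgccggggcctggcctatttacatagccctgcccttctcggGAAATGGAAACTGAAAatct
Gbp3: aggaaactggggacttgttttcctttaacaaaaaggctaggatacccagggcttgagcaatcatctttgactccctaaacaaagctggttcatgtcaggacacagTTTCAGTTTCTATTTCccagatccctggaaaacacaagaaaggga
Bst2: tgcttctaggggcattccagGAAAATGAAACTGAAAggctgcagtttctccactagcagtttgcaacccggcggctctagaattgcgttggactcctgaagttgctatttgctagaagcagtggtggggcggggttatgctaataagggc
Trim30a: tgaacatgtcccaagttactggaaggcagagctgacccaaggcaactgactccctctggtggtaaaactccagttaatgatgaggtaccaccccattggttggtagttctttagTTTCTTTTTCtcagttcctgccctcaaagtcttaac
Oas3: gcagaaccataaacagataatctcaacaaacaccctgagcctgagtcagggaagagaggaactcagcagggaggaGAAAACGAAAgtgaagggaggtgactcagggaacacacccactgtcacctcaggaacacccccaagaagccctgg
Ifit1 has 2 separate matches, while those of Oas1a, Gbp3 and Bst2 are 2 overlapping matches that share letters. A match is a string of letters and not a measured binding site. The GAS letters, TTC, any 3 bases, and GAA, were in the window of 6 of the 25 genes (24%), against 8.13% of genes in the table. Genes with a match had a median correlation with the mean of the other measured genes of 0.88 across arrays, and the 14 genes with a window and no match had 0.83.

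Whole-array medians of the log2 values lay between 7.66 and 7.74. The 12 measured stellate markers, among them Lrat, which esterifies retinol, and Des, an intermediate filament gene, had mean log2 levels between 12.36 and 14.40, each above 75% of all genes. All 12 had a lower mean in reverted cells, against 53.6% of all genes, with a median log2 change (reverted minus quiescent) of -0.03. For 2 of the 12 all reverted arrays lay below all quiescent arrays, against 4.09% of all genes. In the limma fit described below, 0 of the 12 had an adjusted p under 0.05. The macrophage marker Adgre1 had mean log2 levels of 5.80 in reverted and 5.84 in quiescent cells, at level percentile 10.8 of all genes, and 6 of the 15 macrophage markers lay under percentile 25. Cd68, a lysosomal macrophage marker, was at 10.54 in reverted and 10.16 in quiescent cells (log2 change 0.38, SE 0.18, adjusted p = 0.341), at level percentile 77.7. Hepatocyte RNA was present, with albumin (Alb) at 12.41 in reverted and 11.86 in quiescent cells. Arrays give no true zero, and levels of different probe sets cannot be compared as amounts of mRNA.

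None of the 33 interferon-stimulated genes passed the test for a difference between reverted and quiescent cells. In the limma fit over all 19938 genes with Benjamini-Hochberg adjustment, 0 of 33 passed an adjusted p of 0.05, with adjusted p values from 0.174 (Bst2) to 0.984 (Rsad2). Across all genes 0.712% passed, 0.527% upward and 0.186% downward. At an unadjusted p under 0.05, 3 of the 33 passed (9.09%), Bst2 higher and Ifit3 and Stat2 lower, against 16.0% of all genes (8.56% higher and 7.40% lower). The 4 reverted arrays overlapped the 4 quiescent arrays in each of the 33 genes, while the groups did not overlap in 8.73% of all genes (4.64% with all reverted above and 4.09% with all reverted below). The mean was lower in reverted cells for 24 genes and higher for 9, with a median log2 change (reverted minus quiescent) of -0.06, against -0.01 over all genes, of which 53.6% had a lower and 46.4% a higher mean. For 30 of the 33 genes the 95% interval of the change lay within 1.5-fold in either direction, taken gene by gene. Only the intervals of Ifit1, Ifit3 and Mx2 reached past 1.5-fold, and that of Ifit1 alone past 2-fold.

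**Figure D1:**
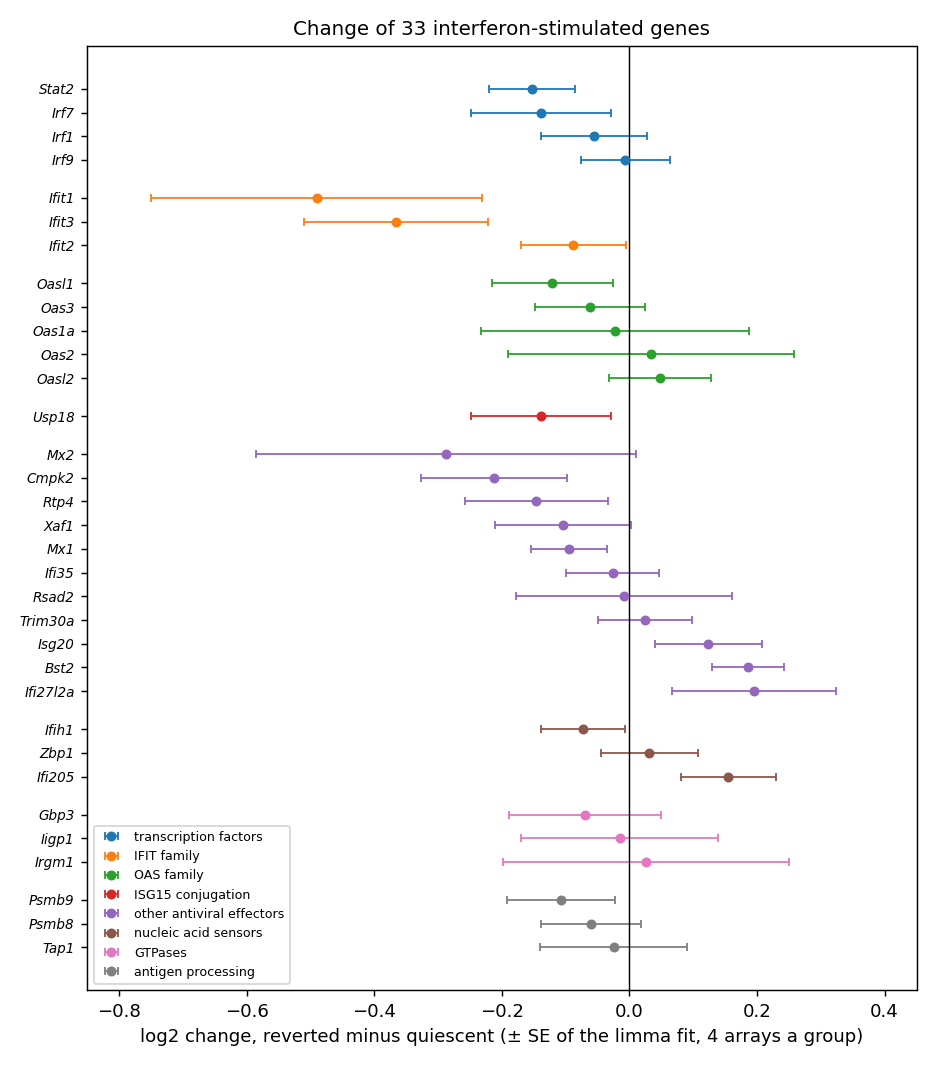
Log2 change, reverted minus quiescent, of the 33 measured genes (points) with the SE of the limma fit (bars, 4 arrays a group), coloured by role. The changes run from -0.49 for Ifit1 to 0.19 for Ifi27l2a, and 0 of 33 passed the test.

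The 4 transcription factors of the response did not pass the test. Stat2, the STAT protein particular to type I and type III interferon signalling, had log2 values of 11.51, 11.79, 11.64 and 11.71 in reverted arrays 1 to 4, against 11.93, 11.74, 11.83 and 11.76 in quiescent arrays 1 to 4. Reverted array 2 lay above quiescent arrays 2 and 4, and the change was -0.15 (SE 0.07, adjusted p = 0.309). Its partner Irf9 was at 11.42, 11.66, 11.55 and 11.61 in reverted and 11.69, 11.42, 11.59 and 11.55 in quiescent cells, a change of -0.01 (SE 0.07, adjusted p = 0.971). Irf9 spanned nearly the same range in both groups, with reverted array 1 and quiescent array 2 lowest. Irf7, which drives interferon alpha production, stood at 11.21, 11.59, 11.31 and 11.45 in the reverted arrays, against 11.76, 11.28, 11.47 and 11.60 in the quiescent arrays (log2 change -0.14, SE 0.11, adjusted p = 0.542). Irf1, a mediator of the interferon gamma response, read 13.24, 13.22, 13.37 and 13.48 in reverted cells, against 13.52, 13.21, 13.31 and 13.49 in quiescent cells (log2 change -0.06, SE 0.08, adjusted p = 0.758). Both groups were again intermixed, and a second probe set of Irf1 was averaged in as an alternative without a change of the call.

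IFIT proteins bind viral RNA and halt its translation. Ifit1 had the lowest change of the set, with log2 values of 9.46, 10.34, 10.17 and 10.39 in reverted arrays 1 to 4, against 11.03, 9.92, 10.79 and 10.59 in quiescent arrays 1 to 4. The means were 10.09 ± 0.43 in reverted and 10.58 ± 0.48 in quiescent cells (SD, n = 4 arrays each), and the change of -0.49 (SE 0.26, adjusted p = 0.378) had a 95% interval of -1.08 to 0.09. Quiescent array 2 lay below 3 of the 4 reverted arrays, and the range within each group was wider than the distance between the means. Ifit3, whose human counterpart stabilises IFIT1 in a complex, was at 11.32, 11.81, 11.71 and 11.71 in reverted and 12.25, 11.72, 12.22 and 11.82 in quiescent cells, a change of -0.37 (SE 0.14, adjusted p = 0.269). Here quiescent arrays 1, 3 and 4 stood above all reverted arrays, and quiescent array 2 among them. Ifit2 read 10.47, 10.76, 10.65 and 10.75 in the reverted arrays, against 10.78, 10.59, 10.71 and 10.91 in the quiescent arrays (log2 change -0.09, SE 0.08, adjusted p = 0.608).

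**Figure D2:**
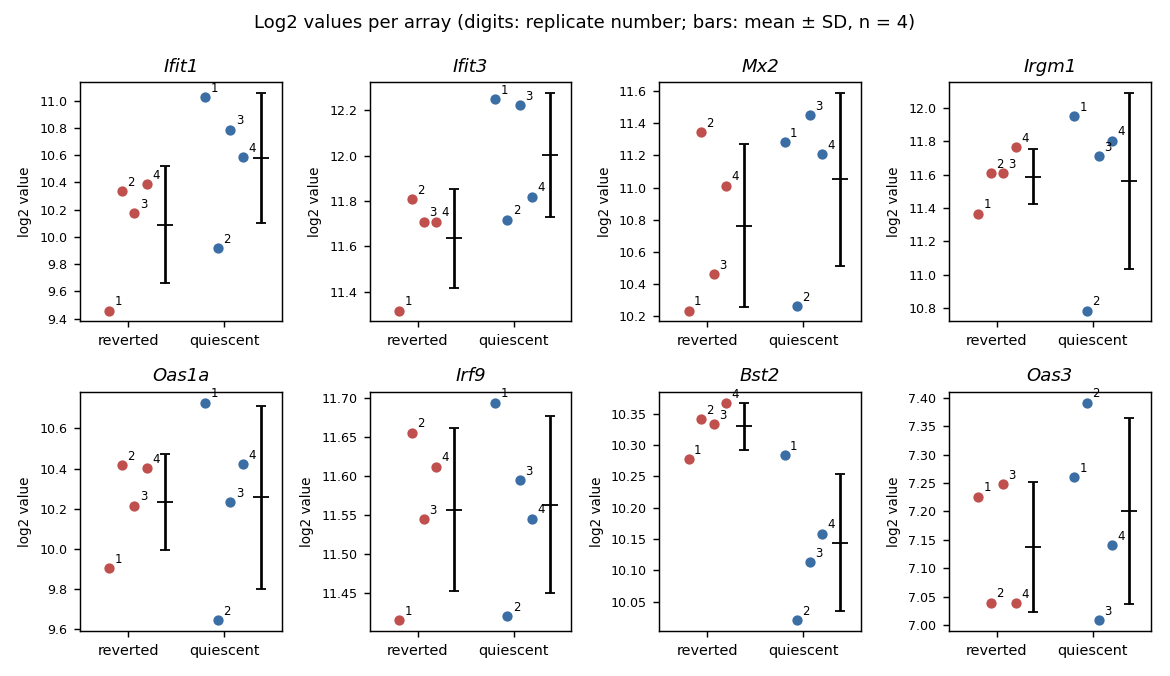
Log2 values of 8 of the genes on each array, reverted on the left and quiescent on the right of each panel (points, with the replicate number; bars, mean ± SD, n = 4). In Ifit1, Ifit3, Mx2, Oas1a, Irgm1 and Irf9, reverted array 1 and quiescent array 2 are the lowest of their groups, in Bst2 likewise, and in Oas3 quiescent array 2 is the highest of its group.

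Oligoadenylate synthases of the OAS family make the short adenylate chains that activate RNase L. Of 5 measured genes, 2 gave a higher mean and 3 gave a lower one in reverted cells, with changes between -0.12 and 0.05. Oas1a had log2 values of 9.90, 10.42, 10.22 and 10.40 in the reverted arrays, against 10.73, 9.64, 10.23 and 10.42 in the quiescent arrays (log2 change -0.02, SE 0.21, adjusted p = 0.966). Another probe set joins Oas1a with the close paralog Oas1g, and cross-hybridisation between them was not tested. Oasl1, which in the mouse has lost the synthase activity and restrains Irf7 translation, stood at 8.76, 8.88, 8.85 and 8.83 in reverted and 9.09, 8.65, 9.13 and 8.93 in quiescent cells (log2 change -0.12, SE 0.10, adjusted p = 0.542). Its reverted arrays lay close together between the quiescent extremes. Oasl2 was at 12.27, 12.52, 12.44 and 12.46 in reverted cells, against 12.56, 12.22, 12.42 and 12.30 in quiescent cells (log2 change 0.05, SE 0.08, adjusted p = 0.785). Oas3 gave 7.23, 7.04, 7.25 and 7.04 in reverted and 7.26, 7.39, 7.01 and 7.14 in quiescent arrays, a change of -0.06 (SE 0.09, adjusted p = 0.734). Its highest array was quiescent array 2, on which most of the 33 genes were lowest. Oas2 read 10.60, 11.16, 11.02 and 11.16 in reverted and 11.61, 11.03, 10.57 and 10.60 in quiescent arrays (log2 change 0.03, SE 0.22, adjusted p = 0.953), with quiescent array 1 above the other 7 arrays. Usp18, the protease that removes ISG15 from proteins and blocks the type I receptor, was at 11.35, 11.78, 11.45 and 11.51 in reverted cells, against 11.91, 11.46, 11.66 and 11.62 in quiescent cells (log2 change -0.14, SE 0.11, adjusted p = 0.542). Quiescent array 1 was the highest and reverted array 1 the lowest of the 8 arrays.

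Among 11 other measured antiviral effectors, reverted cells had the higher mean for 4 and the lower for 7. Bst2, encoding tetherin, which holds budding virus at the cell surface, had the smallest p of the set. Its log2 values were 10.28, 10.34, 10.33 and 10.37 in reverted arrays 1 to 4, against 10.28, 10.02, 10.11 and 10.16 in quiescent arrays 1 to 4. Quiescent array 1 lay just above reverted array 1, and the other quiescent arrays lay below all reverted arrays. The change of Bst2 was 0.19 (SE 0.06, adjusted p = 0.174), or 1.14-fold. Ifi27l2a, a small mitochondrial protein gene of the response, was at 11.50, 11.44, 11.33 and 11.28 in reverted and 11.40, 11.07, 11.46 and 10.83 in quiescent cells (log2 change 0.19, SE 0.13, adjusted p = 0.47), with quiescent arrays 1 and 3 inside the reverted range. Isg20, an RNA exonuclease, read 10.27, 10.56, 10.39 and 10.52 in the reverted arrays, against 10.45, 10.27, 10.13 and 10.40 in the quiescent arrays (log2 change 0.12, SE 0.08, adjusted p = 0.482).

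Lower means were found for Cmpk2, a mitochondrial nucleotide kinase, at 9.95, 10.13, 10.21 and 10.18 in reverted arrays, against 10.59, 10.10, 10.49 and 10.14 in quiescent arrays (log2 change -0.21, SE 0.11, adjusted p = 0.384). Rtp4, a transmembrane protein gene induced by interferon, stood at 11.38, 11.63, 11.66 and 11.65 in reverted and 11.92, 11.48, 11.92 and 11.57 in quiescent cells (log2 change -0.15, SE 0.11, adjusted p = 0.53). In both genes quiescent arrays 1 and 3 were above all reverted arrays, and quiescent array 4 was among them, as was quiescent array 2. Mx1, the nuclear GTPase against influenza virus that is defective in Balb/c and most inbred strains, gave 6.11, 6.05, 6.08 and 6.19 in reverted and 6.34, 6.07, 6.19 and 6.21 in quiescent arrays (log2 change -0.09, SE 0.06, adjusted p = 0.45). Its probe set lies at level percentile 17.7 of all genes, where a change may be understated. Mx2 had the widest range of the 33 genes in each group, at 10.24, 11.34, 10.46 and 11.01 in reverted and 11.28, 10.26, 11.45 and 11.21 in quiescent arrays (log2 change -0.29, SE 0.30, adjusted p = 0.644). Xaf1, a binding partner of the apoptosis inhibitor XIAP, was at 10.10, 10.42, 10.32 and 10.49 in reverted cells, against 10.63, 10.19, 10.48 and 10.45 in quiescent cells (log2 change -0.10, SE 0.11, adjusted p = 0.639). Quiescent array 1 was again the highest of all 8 and reverted array 1 the lowest. Rsad2, encoding the antiviral radical enzyme viperin, stood at 8.75, 9.04, 9.15 and 9.14 in reverted and 9.31, 8.55, 9.34 and 8.93 in quiescent arrays (log2 change -0.01, SE 0.17, adjusted p = 0.984). Trim30a, a ubiquitin ligase gene that restrains Toll-like receptor signalling in the mouse, gave 12.17, 12.46, 12.30 and 12.44 in reverted cells, against 12.45, 12.22, 12.29 and 12.31 in quiescent cells (log2 change 0.02, SE 0.07, adjusted p = 0.887). Ifi35 was at 10.04, 10.33, 10.05 and 10.27 in reverted and 10.20, 10.11, 10.22 and 10.26 in quiescent cells (log2 change -0.03, SE 0.07, adjusted p = 0.874). In each of these 3 genes the range of one group lay inside that of the other.

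None of the 3 measured nucleic acid sensor genes passed. Ifih1, which encodes the double-stranded RNA sensor MDA5, stood at 11.69, 11.95, 11.87 and 11.87 in reverted arrays, against 12.04, 11.81, 11.92 and 11.90 in quiescent arrays (log2 change -0.07, SE 0.07, adjusted p = 0.599). Ifi205, a DNA-binding protein gene of the PYHIN family, read 5.49, 5.73, 5.67 and 5.86 in reverted and 5.61, 5.46, 5.53 and 5.53 in quiescent cells (log2 change 0.15, SE 0.07, adjusted p = 0.345). The probe set of Ifi205 lies at level percentile 6.80, and reverted array 1 was among the quiescent arrays while the other 3 reverted arrays were above them. Zbp1, a sensor of Z-form nucleic acid that triggers cell death, was at 8.44, 8.57, 8.48 and 8.70 in reverted cells, against 8.67, 8.35, 8.52 and 8.53 in quiescent cells (log2 change 0.03, SE 0.08, adjusted p = 0.859).

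Interferon-inducible GTPases disrupt the vacuoles of intracellular pathogens, and respond mainly to interferon gamma. Iigp1 had log2 values of 11.98, 12.24, 12.19 and 12.35 in the reverted arrays, against 12.54, 11.73, 12.29 and 12.26 in the quiescent arrays (log2 change -0.02, SE 0.15, adjusted p = 0.97). Gbp3 was at 10.92, 11.05, 10.86 and 11.12 in reverted and 11.31, 10.70, 11.11 and 11.11 in quiescent cells (log2 change -0.07, SE 0.12, adjusted p = 0.788). Irgm1, a regulator of the other GTPases, stood at 11.37, 11.61, 11.61 and 11.76 in reverted and 11.95, 10.78, 11.71 and 11.80 in quiescent arrays (log2 change 0.03, SE 0.22, adjusted p = 0.965). In these 3 genes quiescent array 2 was the lowest of all 8 arrays and quiescent array 1 the highest. Of the antigen processing genes, the peptide transporter subunit Tap1 gave 11.18, 11.21, 11.15 and 11.30 in reverted and 11.43, 10.84, 11.34 and 11.32 in quiescent cells (log2 change -0.02, SE 0.12, adjusted p = 0.931), again with quiescent array 2 lowest. The immunoproteasome subunit Psmb9 read 9.93, 9.79, 9.79 and 9.69 in reverted cells, against 9.75, 9.81, 10.13 and 9.92 in quiescent cells (log2 change -0.11, SE 0.08, adjusted p = 0.544). Psmb8, another immunoproteasome subunit, stood at 9.81, 9.88, 9.83 and 10.01 in reverted and 9.97, 9.72, 10.06 and 10.02 in quiescent arrays (log2 change -0.06, SE 0.08, adjusted p = 0.714). Quiescent array 2 was lowest for Psmb8, while the order of arrays in Psmb9 was another.

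For 30 of the 33 genes the range within each group was wider than the difference of the group means, and most genes were high or low on the same arrays. In the quiescent group, array 2 was the lowest array for 28 of 33 genes (84.8%, against 23.9% of all genes), and array 1 the highest for 24 (72.7%, against 20.5%). Among reverted arrays, array 1 was the lowest for 26 of 33 (78.8%, against 23.9% of all genes). Reverted arrays 2 and 4 shared the highest place with 14 genes (42.4%, against 21.4% of all genes) and 13 genes (39.4%, against 24.5%). Averaged over the 33 genes, reverted arrays 1 to 4 deviated from their group mean by -0.16, 0.09, -0.01 and 0.09 on the log2 scale. The corresponding deviations of quiescent arrays 1 to 4 were 0.19, -0.24, 0.06 and -0.01. The mean log2 level of the set ran from 10.31 to 10.57 over the reverted arrays and from 10.30 to 10.74 over the quiescent arrays, and the reverted range lay inside the quiescent one.

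**Figure D3:**
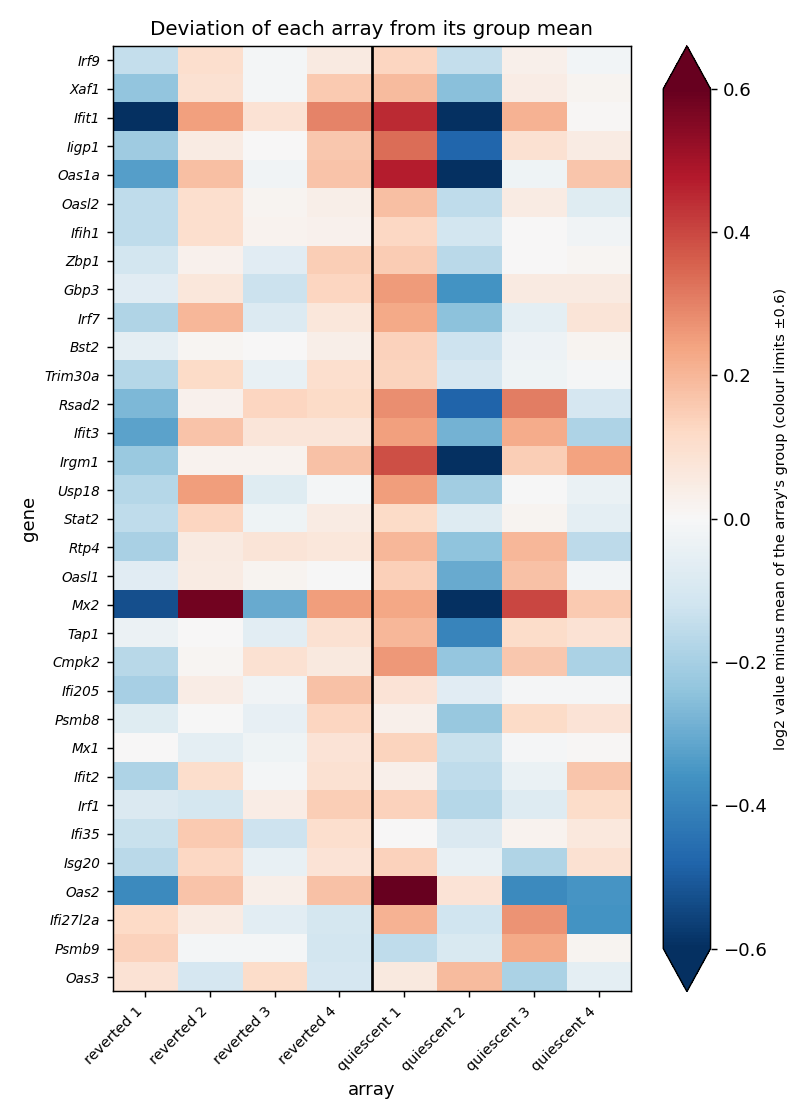
Deviation of each array's log2 value from the mean of its own group for the 33 genes, with reverted arrays left and quiescent arrays right of the line, and genes ordered by their correlation with the mean of the other genes. Reverted array 1 and quiescent array 2 are blue (low) for most genes and quiescent array 1 is red (high), with Psmb9 and Oas3 at the bottom running otherwise.

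Correlations of these within-group deviations over the 8 arrays put a number on the shared pattern, as a description without a test. Each gene has 8 values less 2 group means, and all genes share the same arrays. Over the 528 pairs of genes the mean Pearson r was 0.55 and the median 0.69, with 466 pairs above 0 and 163 above 0.8. The mean over all pairs of the 19938 genes was 0.01. Lists of cell type markers also varied together, with a mean r of 0.78 for 14 hepatocyte, 0.67 for 5 cholangiocyte and 0.43 for 12 endothelial markers. The other marker lists lay between 0.07 (stellate) and 0.28 (macrophage), so a high mean r was not particular to the 33 genes. Within the reverted arrays alone the mean r of the 33 genes was 0.48, and within the quiescent arrays alone 0.61, so both groups showed it. It lay between 0.47 (without quiescent array 2) and 0.60 (without quiescent array 4) when each array was left out in turn. A single component held 73.1% of the within-group variance of the 33 genes, against 26.2% for the leading component of all genes. The deviations were not scaled, so genes with a wide within-group SD, such as Mx2 (0.52) and Ifit1 (0.45), weigh most in the 73.1%. The within-group SD of the set had a median of 0.16, against 0.08 over all genes.

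Against the mean of the other measured genes, r was above 0.8 for 22 of the 33. The highest values belonged to Irf9 (0.98), Xaf1 (0.98), Ifit1 (0.97), Iigp1 (0.97) and Oas1a (0.95), each from another role group. The 3 measured GTPases had r between 0.88 and 0.97 and a mean pairwise r of 0.95. Targets of type I interferon and of interferon gamma were not told apart here. The closest pair was Ifit1 and Xaf1, at 0.99. Oas3 (-0.62) and Psmb9 (-0.25) had negative values, and Ifi27l2a (0.27) and Oas2 (0.44) low ones.

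**Figure D4:**
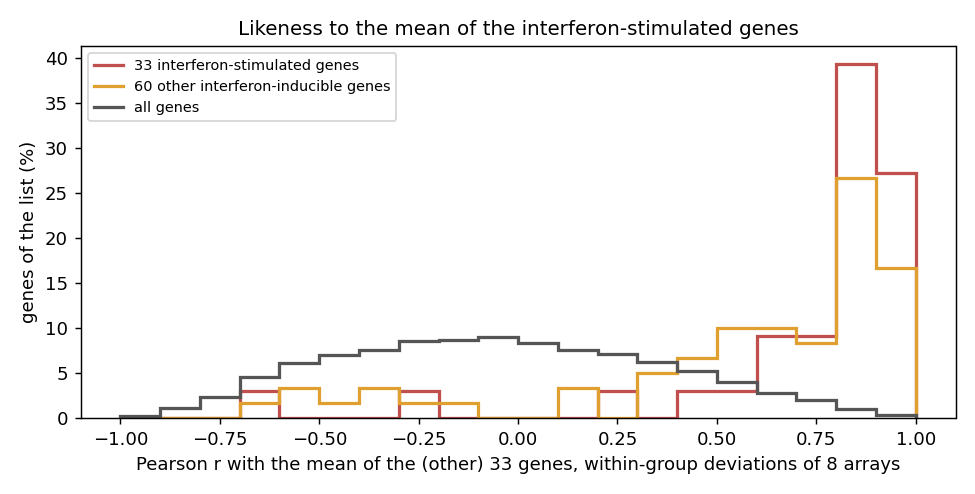
Share of genes (vertical axis, percent of each list) by their Pearson r with the mean of the interferon-stimulated genes, from within-group deviations of 8 arrays, in bins of 0.1. Of the 33 genes, 22 lie above 0.8, as do 26 of 60 other interferon-inducible genes and 1.39% of all genes.

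Many interferon-inducible genes outside the set followed the same arrays, but not all. Of 60 other such genes measured, 26 (43.3%) had an r above 0.8 with the mean of the 33, against 1.39% of all genes. The median r was 0.72, against -0.06 over all genes. For 8 of the 60 r was below 0, down to -0.68, as for 11035 of all 19938 genes. The 60 genes had a mean pairwise r of 0.32, against 0.55 for the 33. The 6 genes outside the 33 with the highest r were the predicted gene Gm4951 (0.997), the PYHIN family gene Ifi208 (0.983), the guanylate-binding protein gene Gbp7 (0.973), Anp32-ps (0.966), Fam174c (0.966) and the Schlafen gene Slfn8 (0.965). Gm4951 stood at 10.97, 11.48, 11.25 and 11.43 in reverted arrays, against 11.66, 10.84, 11.44 and 11.33 in quiescent arrays, again with reverted array 1 and quiescent array 2 lowest in their groups. Among the 20 genes most like the set, 5 came from the interferon pathway lists (25%), which hold 0.568% of all genes outside the set.

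The rest of the pathway was read from the same fit. Of 113 measured genes in lists of ligands, receptors and signalling proteins, sensors and adaptors, negative regulators and other interferon-inducible genes, 1 rose, 0 fell and 112 did not pass, against 0.527% of all genes higher and 0.186% lower. The gene that rose was Ikbke, a kinase that acts with Tbk1 on interferon regulatory factors. Ikbke had log2 values of 8.98, 9.15, 8.80 and 8.96 in reverted arrays, against 8.50, 8.44, 8.43 and 8.58 in quiescent arrays, with all reverted above all quiescent arrays. Its change was 0.49 (SE 0.07, adjusted p = 0.0188). The adjusted p of Ikbke was 0.0599 with the mean of the hepatocyte markers as a covariate, and between 0.0518 and 0.0703 without reverted array 4 or quiescent array 1, 2 or 3.

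Ligand genes lay low on the array scale: the 16 measured had a median level of 6.83, and 0 lay above 75% of all genes. The epithelial interferon gene Ifne (log2 change -0.13, SE 0.05, adjusted p = 0.291) and Ifna12 (log2 change -0.20, SE 0.10, adjusted p = 0.349) had the smallest p among them. Of 9 receptor and kinase genes, the interferon gamma receptor chains came nearest to the limit. Ifngr2 read 12.20, 12.02, 12.24 and 12.20 in reverted and 11.92, 11.89, 12.07 and 11.98 in quiescent arrays (log2 change 0.20, SE 0.06, adjusted p = 0.168), and Ifngr1 had a change of 0.13 (SE 0.05, adjusted p = 0.271). The receptor and kinase genes did not follow the interferon-stimulated genes across arrays, with a median r of -0.18, and the ligand genes had -0.16. Among 11 negative regulators, the phosphatase genes Ptpn1 (log2 change 0.23, SE 0.07, adjusted p = 0.194) and Ptpn2 (log2 change 0.29, SE 0.11, adjusted p = 0.253) had the smallest p. Of the other inducible genes these were Slfn2 (log2 change 0.23, SE 0.06, adjusted p = 0.125) and Isg20l2 (log2 change 0.22, SE 0.08, adjusted p = 0.229).

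Markers of other cell types were set beside the array pattern. All 14 hepatocyte markers had a negative r with the mean of the 33 genes, between -0.79 and -0.37. Their mean deviated by 0.22, -0.29, -0.02 and 0.09 on reverted arrays 1 to 4, and by -0.23, 0.50, 0.16 and -0.43 on quiescent arrays 1 to 4. All 14 were above their group mean on reverted array 1 and on quiescent array 2, the arrays on which the interferon-stimulated genes were lowest. The mean of the 33 genes deviated by 0.09 on reverted array 2, where hepatocyte markers were lowest in the group. On quiescent array 4, where hepatocyte markers were again lowest, it deviated by -0.01, and on quiescent array 1 by 0.19. The part of hepatocyte RNA in the array pattern was not tested. The summed linear level of the 14 markers ran from 9946 to 14570 over reverted arrays and from 5428 to 13263 over quiescent arrays. The mean was higher in reverted cells for all 14, against 46.4% of all genes, with a median log2 change of 0.42. At an unadjusted p under 0.05, 8 of 14 (57.1%) were higher and 0 lower, against 8.56% and 7.40% of all genes, and 1 (Hp, log2 change 0.80, SE 0.14, adjusted p = 0.0373) passed the adjusted test, against 0.712% of all genes. With the mean of these 14 markers as a covariate, the mean pairwise r of the 33 genes was 0.48, their median log2 change was 0.09 in place of -0.06, and 0 passed. The log2 change then turned positive for 16 genes, up to 0.43 for Oas1a. In such bulk samples fewer cells of a type and less RNA per cell cannot be told apart. The 15 macrophage markers had a median r of -0.11, with summed linear levels from 2527 to 3319 over reverted and from 2286 to 2831 over quiescent arrays, and 0 passed. All reverted arrays lay above all quiescent arrays for 1 of them, Lyz2, against 4.64% of all genes. Its log2 change was 0.59 (SE 0.15, adjusted p = 0.129), with an r of 0.00. With the mean of the 15 macrophage markers as a covariate, the mean pairwise r of the 33 genes was 0.57. The 12 lymphocyte markers (median r 0.03) and 9 dendritic cell markers (-0.14) had 0 passing genes. All 5 cholangiocyte markers had a negative r, between -0.63 and -0.26, and 0 passed. Their mean was lower in reverted cells for all 5, against 53.6% of all genes. Of 12 endothelial markers 9 had a higher mean in reverted cells, against 46.4% of all genes, and 0 passed, with r between -0.82 and 0.93. Of 10 mesothelial and portal fibroblast markers 2 rose, against 0.527% of all genes. They were Dpt (log2 change 1.69, SE 0.24, adjusted p = 0.0174) and Wt1 (log2 change 1.39, SE 0.16, adjusted p = 0.00801). The mean was lower in reverted cells for 7 of the 10, against 53.6% of all genes. The r of Dpt was -0.51 and that of Wt1 -0.79. The part of these other lists in the array pattern was not tested.

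**Figure D5:**
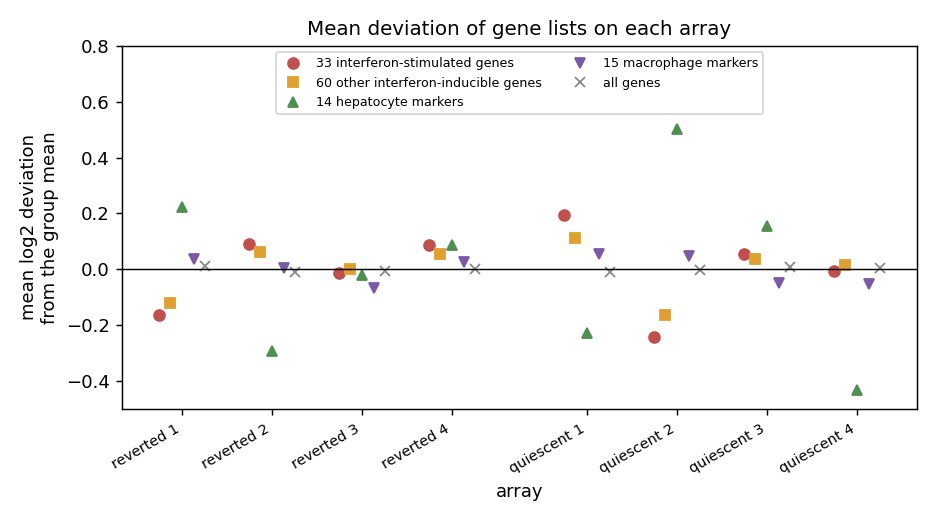
Mean log2 deviation of 5 gene lists from their group mean on each array (vertical axis), reverted arrays on the left and quiescent arrays on the right. The interferon-stimulated genes and the 60 other inducible genes are lowest on reverted array 1 and quiescent array 2, where hepatocyte markers are highest. All genes together stay near 0 on these values, which were normalized across arrays.

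The size of the median change between groups moved with single arrays. Without quiescent array 2, the array with the lowest interferon-stimulated genes, the median log2 change of the 33 genes was -0.14. It was -0.03 without quiescent array 1, the highest array, and -0.02 without reverted array 1. In these fits 0 of 33 genes passed, with a lowest adjusted p of 0.202, 0.125 and 0.136.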

How the data were processed

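Gene expression was measured on 8 arrays of sorted hepatic stellate cells, 4 reverted and 4 quiescent. Per the submitters' processing notes, the authors made the deposited log2 values with RMA (background correction, normalization across arrays and 1 summary value per probe set). Its version and settings and the genome build are not given in the sources used here. Per the labels' protocols, 150 ng of RNA was amplified and biotin-labelled for hybridisation. The table holds 35556 probe sets, and 0 columns were without a sample. The platform annotation lists 23410 of them, 21789 with 1 gene symbol and 1621 with several, and 12146 are unnamed here. For 999 genes with several probe sets the one with the highest mean was used, which left 19938 genes.

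Reverted minus quiescent differences were fitted with limma 3.58.1 (lmFit, eBayes; R 4.3.3), 2-sided, with no covariates and no filter on dim genes, with Benjamini-Hochberg adjustment over all 19938 genes and a limit of 0.05. Tables and plots were made with Python 3.11.15, pandas 2.3.3 and matplotlib 3.10.9. The limma fit was tested on simulated data with noise drawn separately for each gene, without the co-variation described above. The genes and lists were chosen with earlier results of these data known. All measured genes of the set are named, and of the pathway lists the called genes or the 2 with the smallest p, and the 6 other genes most correlated with the set. Deviations are from the mean of an array's group. The number of arrays limits the precision, and changes of dim genes may be understated on this scale. Alternatives are given in the closing section. RefSeq promoter sequences come from GRCm38.p6.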

Additional observations from a re-analysis of the deposited data

Results flagged for a closer look

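Of 66 sets of 4 arrays (33 genes in each group), 1 held an array far from the others. Rtp4 on reverted array 1 stood at a log2 value of 11.38, with the other 3 reverted arrays between 11.63 and 11.66, so that its gap filled 0.91 of the range. Chance gives such a gap in about 1 in 20 sets.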

How the results depend on the processing

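The alternatives were 10 changes of the processing and the leaving out of each of the 8 arrays in turn. Under all 18, 0 of the 33 genes passed the test, and the lowest adjusted p of any of them was 0.113, with array weights. Leaving out dim genes kept 31 (lowest 25%) and 30 (lower 50%) of the 33. All reversals were of changes that did not pass. With the hepatocyte marker mean added as covariate, log2 changes turned positive for Oasl1 (0.013), Usp18 (0.053), Irf7 (0.092), Ifih1 (0.030), Ifit2 (0.080), Xaf1 (0.072), Mx2 (0.25), Psmb8 (0.044), Irf1 (0.059), Gbp3 (0.14), Ifi35 (0.074), Tap1 (0.17), Oas1a (0.43), Iigp1 (0.26), Irf9 (0.10) and Rsad2 (0.20). With quantile normalization the values turned to -0.0022 (Zbp1) and -0.0041 (Irgm1). With array weights the values turned to -0.0046 (Oas2), 0.0012 (Iigp1) and 0.020 (Rsad2). With the macrophage marker mean as covariate the values turned to -0.084 (Oas2), 0.0051 (Oas1a), 0.010 (Iigp1) and 0.048 (Rsad2). Over the fits without 1 array, the log2 changes that crossed 0 ranged from -0.13 to 0.0012 for Oas3, from -0.0037 to 0.11 for Oasl2, from -0.19 to 0.015 for Gbp3, from -0.024 to 0.081 for Zbp1, from -0.079 to 0.018 for Ifi35, from -0.014 to 0.081 for Trim30a, from -0.16 to 0.041 for Tap1, from -0.094 to 0.25 for Oas2, from -0.23 to 0.15 for Irgm1, from -0.23 to 0.13 for Oas1a, from -0.17 to 0.097 for Iigp1, from -0.054 to 0.041 for Irf9 and from -0.17 to 0.093 for Rsad2. The 105 higher and 37 lower calls over all genes became 128 and 91 with quantile normalization, 112 and 52 with median centring, 132 and 52 with an intensity trend and robust variance, 218 and 88 with array weights and 21 and 2 with the hepatocyte covariate, and 48 and 15 with the replicate block, where 0 of the 33 genes passed and the adjusted p of Ikbke was 0.0588. The deviations of same-numbered arrays correlated between -0.15 and 0.08, and 0 of 4 reverted arrays correlated best with their own number, so the numbers were not taken as pairs. Leaving out each array gave 41 to 175 higher and 13 to 72 lower calls. In the pathway lists, quantile normalization gave 2 higher calls (Ikbke and Slfn2), and the hepatocyte covariate and the replicate block gave 0, as against 1; leaving out each array gave 0 to 1. For the mean pairwise correlation, alternatives were added after seeing the data: 0.55 with quantile normalization, 0.58 with median centring, 0.48 with the hepatocyte and 0.57 with the macrophage covariate, and 0.47 to 0.60 with each array left out, against 0.55. The cause of these shifts was not tested. No detection levels were used, so signal over background is unknown for the dim genes Ifi205, Mx1 and Oas3.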
